A study of Homo sapiens with 8 samples.

Results

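22Rv1 cells that carried an HNF4G transgene and received the BET inhibitor ABBV-075 were compared with 22Rv1 cells that carried a GFP transgene and received only the vehicle DMSO. The comparison used 4 of the 8 RNA-Seq libraries of the series, 2 for each group, and the 17876 of 57603 genes whose normalized count averaged 10 or more over all 8 libraries. Its question was an absolute one: whether genes that BET inhibition lowers in GFP cells stood at, above or below the untreated level once HNF4G was supplied from a transgene.

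The groups used here were HNF4G-ABBV-075 (HNF4G transgene, 25 nM ABBV-075 for 24 hours), GFP-ABBV-075 (GFP transgene, the same dose and time), and GFP-DMSO (GFP transgene, DMSO for 24 hours). The remaining group, HNF4G-DMSO, entered the model only through its share in the estimate of spread. 22Rv1 is an established human line of castration-resistant prostate cancer that expresses a gastrointestinal (GI) program, and all groups were grown in RPMI medium with 10% serum. The study reports that the transgenes were driven by the murine stem cell virus promoter, which the drug does not repress. Reads per gene do not separate transgene from endogenous HNF4G, and a lasting difference between the transduced lines other than the transgene cannot be told apart from it. Whether the 2 libraries of each group were grown apart is not in the labels. The p-values therefore reflect the scatter between libraries alone, and that scatter may be purely technical.

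BET proteins bind acetylated histone tails and help RNA polymerase II leave the promoter, and their inhibitors displace them from chromatin. HNF4G is a transcription factor of the gut and liver lineage, and in prostate cancer it drives the GI transcriptome, a set of genes for brush border, secreted enzymes and steroid conjugation that the normal prostate largely lacks. The kallikreins and other luminal genes are induced by androgens.

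The recovered depth was 31508275 to 40262678 reads per library. HNF4G-ABBV-075 number 1 stood apart in base composition, with a mean transcript GC content of 46.3% per read, against 47.9% in its partner and 47.6% and 47.5% in the GFP-DMSO libraries. HNF4G-DMSO number 2, which enters the fit through the estimate of the spread, was at 46.3% too, against 47.4% in its partner. The SD of the log2 difference between the 2 libraries of a group was 0.53 in HNF4G-ABBV-075 and 0.31 in GFP-DMSO. Prostate luminal markers were present throughout (summed normalized count 146042 and 151877 in HNF4G-ABBV-075, 160663 and 161981 in GFP-DMSO). None of the 8 immune and endothelial markers, and 1 of the 6 basal markers, reached a mean of 10.

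In HNF4G-ABBV-075 cells 2865 genes were higher and 3354 lower than in GFP-DMSO cells at an adjusted p under 0.05 (limma, two-sided, Benjamini-Hochberg), which is 16.0% and 18.8% of the genes tested. A further 4520 genes (25.3%) were not called and had a 95% confidence interval entirely inside 1.5 times the untreated level in either direction, here called within 1.5 times. The remaining 7137 genes were unresolved, with an interval too wide to place them. The median gene stood at 99.5% of its untreated level.

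BET-dependent genes were defined in GFP cells alone, as those that the drug lowered by 2-fold or more relative to GFP-DMSO, at an adjusted p under 0.05. There were 1705, or 9.54% of the genes tested. BET-repressed genes were those it raised by 2-fold or more, 820 in number or 4.59%. Both definitions used the GFP-DMSO libraries that also served as the untreated level, so the positions below describe these genes and carry no test of their own. The weakest fall admitted was that of CALHM2, at -1.00015 on the log2 scale, and SNX18P3, at -0.998, lay just outside.

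Return to the untreated level was rare. Of the 1705 BET-dependent genes, 20 stood above GFP-DMSO in HNF4G-ABBV-075 cells, 29 stood within 1.5 times, 1392 stood below, and 264 were unresolved. The 49 genes above or within make up 2.87% of the BET-dependent genes. Those below make up 81.6%, beside 18.8% called lower among all tested genes. In HNF4G-ABBV-075 cells the median BET-dependent gene stood at 38.5% of its untreated level, with quartiles of 25.7% and 53.0%. The same genes had a median of 33.3% in GFP-ABBV-075 cells, where a level under 50% was the condition of their choice. BET-repressed genes stayed high: 681 of 820 were above GFP-DMSO in HNF4G-ABBV-075 cells, 139 were unresolved, and 0 were within or below. Those above make up 83.0%, beside 16.0% called higher among all tested genes. The median level of the 820 genes was 256% of untreated in HNF4G-ABBV-075 cells and 269% in GFP-ABBV-075 cells.

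**Figure D1:**
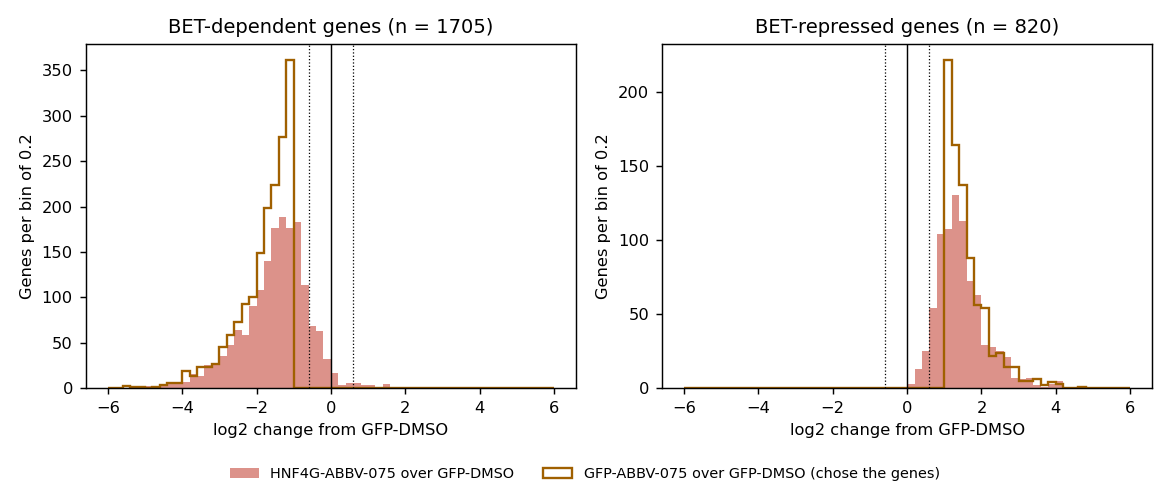
Histograms of the log2 change from GFP-DMSO for 1705 BET-dependent genes (left) and 820 BET-repressed genes (right), in HNF4G-ABBV-075 cells (filled) and in GFP-ABBV-075 cells (outline, the values that chose the genes). The solid line marks the untreated level and the dotted lines 1.5 times above and below it; most BET-dependent genes lie left of the dotted lines, with medians of -1.38 and -1.59.

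The HNF signature, a list of 11 genes with HNF4G and its direct targets, spread over every position. All 11 of its genes were BET-dependent. In HNF4G-ABBV-075 cells 2 were above the untreated level (HNF4G and CLRN3), 1 was within 1.5 times (AKR1C3), 7 were below (among them ANG, GAS2, UGT2B15, METTL7B, MUC13 and SGK2) and APOH was unresolved. The median log2 change was -0.50 against GFP-DMSO, beside -0.01 over all tested genes, and -2.49 for the same genes in GFP-ABBV-075 cells. The study chose the targets partly by their response to HNF factors in 22Rv1 cells, so the list is not independent evidence of its direction.

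HNF4G itself, the supplied factor, checks the labels. It had normalized counts of 43972 and 34116 in HNF4G-ABBV-075 cells, 206 and 213 in GFP-ABBV-075 cells, and 1088 and 993 in GFP-DMSO cells. The transgenic cells thus held 37.2-fold the untreated level under the drug, with no overlap between groups (log2 change 5.22 ± 0.15 SE, adjusted p = 7.2e-06). In HNF4G-DMSO cells the counts were 10110 and 12104, so the HNF4G count in transgenic cells was higher with the drug than without it.

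Among the targets, CLRN3, a tetraspan membrane protein of the brush border program (chr10:127877841-127892941, minus strand), reached 95.1 and 103 in HNF4G-ABBV-075 cells, against 1.10 and 3.46 in GFP-ABBV-075 cells and 50.3 and 39.4 in GFP-DMSO cells. Both transgenic libraries exceeded both untreated ones, at 219% of the untreated level (log2 change 1.13 ± 0.35 SE, adjusted p = 0.038), and the call was lost when any of these 4 libraries was left out (adjusted p up to 0.178). AKR1C3, the aldo-keto reductase that makes testosterone from androstenedione (chr10:5035354-5107686, plus strand), had 2371 and 2148 in HNF4G-ABBV-075 cells, 627 and 666 in GFP-ABBV-075 cells, and 2613 and 2427 in GFP-DMSO cells. It stood at 89.6% of untreated (log2 change -0.16, 95% interval -0.39 to 0.08). With a correction for GC content and length AKR1C3 was called lower (log2 change -0.23, adjusted p = 0.015), so its place within 1.5 times depends on the processing.

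The remaining targets fell into a graded order below the untreated level. APOH, a plasma phospholipid-binding protein, stood at 90.5% with an interval of -0.80 to 0.51 on the log2 scale. ANG, a secreted ribonuclease, stood at 71.1%, GAS2, a cytoskeletal linker, at 70.7%, and UGT2B15, which glucuronidates androgens, at 61.4%. METTL7B, an alkyl thiol methyltransferase, stood at 52.3% and the membrane mucin MUC13 at 51.7%. SGK2, a serum- and glucocorticoid-related kinase, stood at 35.8%, with 117 and 134 in HNF4G-ABBV-075 cells, 58.4 and 54.2 in GFP-ABBV-075 cells, and 372 and 333 in GFP-DMSO cells. METTL7B, MUC13 and SGK2 kept their calls without any 1 library, ANG and GAS2 lost theirs without either GFP-DMSO library (adjusted p up to 0.132 and 0.194) and UGT2B15 without GFP-DMSO number 2 (0.060). GAS2 also lost its call without HNF4G-ABBV-075 number 2 or without either GFP-ABBV-075 library. UGT2B15 and AKR1C3 have close paralogs whose reads the counting could split, so their levels are uncertain to that extent.

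**Figure D2:**
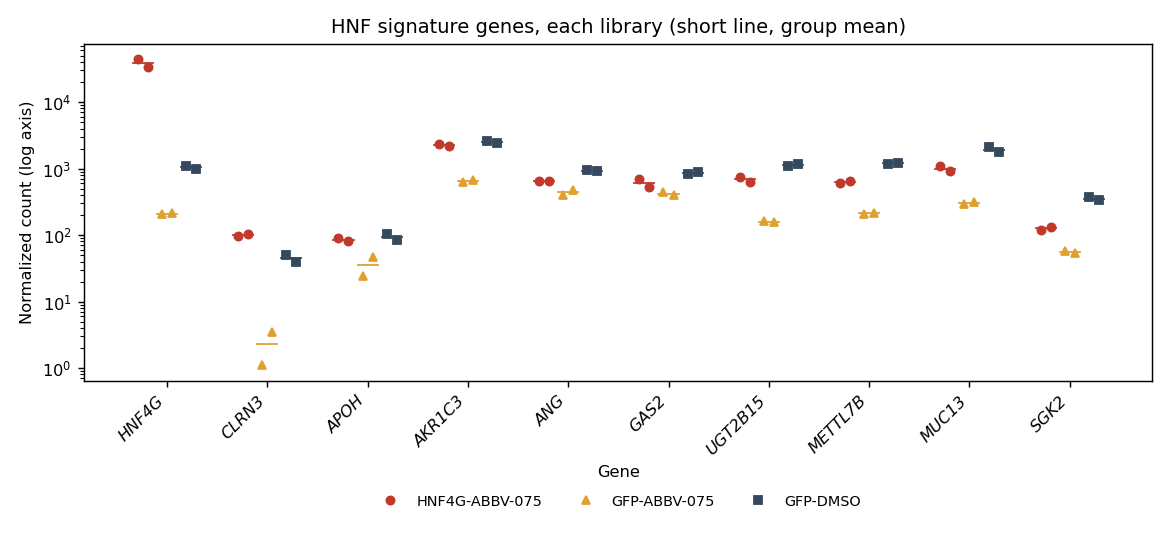
Normalized counts of 10 HNF signature genes on a log axis, 1 point per library, for HNF4G-ABBV-075 (circles), GFP-ABBV-075 (triangles) and GFP-DMSO (squares), with short lines at the group means. HNF4G and CLRN3 in HNF4G-ABBV-075 cells lie above the squares, AKR1C3 near them and SGK2 between triangles and squares, at 35.8% of untreated.

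The genes that passed the untreated level formed a short list. Among its 20 genes were HNF4G, CCN2, ANKS4B, PDZD3, REG4, TRIM15, SLCO2B1, HHLA2, USH1C, CLRN3, KCNJ3, MME, CAMK2N1, TTR, PIGR, PTGFR, F5, C2orf72 and MYO1A. In all 20 both HNF4G-ABBV-075 libraries exceeded both GFP-DMSO libraries. The same lack of overlap held for every gene called in either direction (6219), so it adds nothing to the call. Of all tested genes 67.0% showed no overlap in one direction or the other. Without each library in turn all 20 kept a positive change, but 12 lost the call at least once and 8 kept it throughout (among them HNF4G, CCN2, REG4, HHLA2, USH1C, KCNJ3 and CAMK2N1). Of the 12, PDZD3, TRIM15, TTR, PIGR, PTGFR and C2orf72 lost it without GFP-DMSO number 1, among other libraries for all but PTGFR (adjusted p up to 0.187, for PIGR, which lost it without any 1 of the 8 libraries). Under edgeR 20 kept the call and under DESeq2 17 did.

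CCN2, a secreted matricellular protein known as a YAP/TEAD target (chr6:131948176-131951372, minus strand), was the furthest above after HNF4G. It had 2197 and 2065 in HNF4G-ABBV-075 cells, 118 and 115 in GFP-ABBV-075 cells, and 336 and 326 in GFP-DMSO cells. The transgenic cells thus held 6.42-fold the untreated amount under a drug that left 35.4% of it in GFP cells (log2 change 2.68 ± 0.13 SE, adjusted p = 3.5e-05).

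Several of the genes above belong to the microvillus. ANKS4B, a scaffold of the intermicrovillar adhesion complex, had 67.0 and 63.8 in HNF4G-ABBV-075 cells, 0 and 1.15 in GFP-ABBV-075 cells, and 18.4 and 19.2 in GFP-DMSO cells (log2 change against GFP-DMSO 1.75 ± 0.36 SE, adjusted p = 0.0078, and 0.054 without GFP-DMSO number 1). Its partner USH1C, the scaffold harmonin, had 143 and 165 in HNF4G-ABBV-075 cells, 14.3 and 24.2 in GFP-ABBV-075 cells, and 61.9 and 63.6 in GFP-DMSO cells (log2 change 1.27 ± 0.24 SE, adjusted p = 0.0054). MYO1A, the brush border myosin, had 1205 and 1078 in HNF4G-ABBV-075 cells, 120 and 98.0 in GFP-ABBV-075 cells, and 803 and 836 in GFP-DMSO cells. For all 3 genes the transgenic libraries lay above the untreated ones and the GFP-ABBV-075 libraries far below. The excess of MYO1A was the smallest of the 20, at 139% of untreated (log2 change 0.48 ± 0.14 SE, adjusted p = 0.030), and its call was lost without HNF4G-ABBV-075 number 1 or either GFP-DMSO library (adjusted p up to 0.157).

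REG4, a secreted lectin of enteroendocrine and goblet cells, had 191 and 181 in HNF4G-ABBV-075 cells, 29.7 and 31.1 in GFP-ABBV-075 cells, and 61.9 and 64.7 in GFP-DMSO cells. It stood at 291% of untreated, with no overlap between groups (adjusted p = 0.00024). Other members above were the organic anion transporter SLCO2B1 (289%), the B7-family ligand HHLA2 (278%), the potassium channel subunit KCNJ3 (219%), the membrane protease MME (208%), the kinase inhibitor CAMK2N1 (184%), and the coagulation factor F5 (167%). SLCO2B1 lost its call without HNF4G-ABBV-075 number 2 or either GFP-DMSO library (adjusted p up to 0.132), F5 without HNF4G-ABBV-075 number 1 or either GFP-DMSO library (up to 0.103), and MME without GFP-DMSO number 1 (0.058).

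The 29 genes within 1.5 times ran from 80.6% to 111% of the untreated level, with a median of 92.0%, beside 43.2% for the same genes in GFP-ABBV-075 cells. VIL1, the actin-bundling villin of microvilli (chr2:218419121-218453295, plus strand), had the strongest fall in GFP cells among them, to 19.5%. Its counts were 2747 and 2874 in HNF4G-ABBV-075 cells, 589 and 593 in GFP-ABBV-075 cells, and 3181 and 2883 in GFP-DMSO cells, a log2 change against GFP-DMSO of -0.11 (95% interval -0.34 to 0.12). DHRS3, a retinal reductase, stood at 108%, AKR1C1, a progesterone-inactivating paralog of AKR1C3, at 107%, and B3GNT3, a glycosyltransferase, at 111%. With the correction for GC content and length DHRS3 and B3GNT3 were called higher (log2 change 0.25 and 0.32, adjusted p = 0.036 and 0.025). SEMA3D, a secreted semaphorin, stood at 97.1%, the GABA receptor subunit GABRE at 85.4% and the membrane repair protein MYOF at 91.0%. The signal transducer SMAD3 (99.8%), the caveolar protein CAV1 (99.0%), the receptor kinase MET (106%) and the protease inhibitor TFPI (85.3%), named after their values were seen, also stood there. PAK1 (80.6%) and TFPI crossed into the called range without HNF4G-ABBV-075 number 1, and NHSL1 (83.6%) without number 2.

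**Figure D3:**
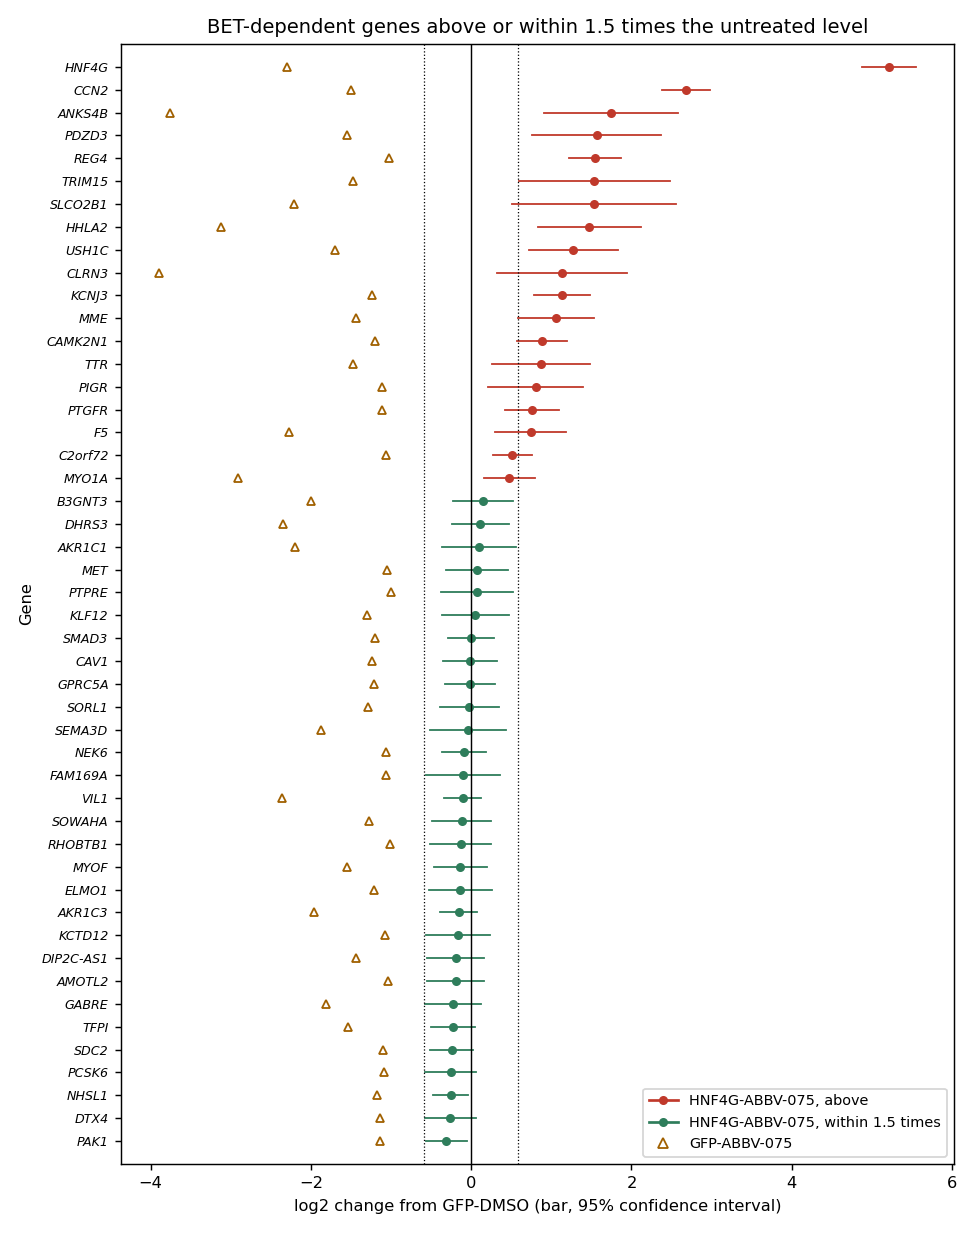
The log2 change of HNF4G-ABBV-075 from GFP-DMSO (filled points, bars 95% confidence intervals) for 19 of the 20 BET-dependent genes above (red) and the 29 within 1.5 times (green), with GFP-ABBV-075 as open triangles. Dotted lines mark 1.5 times either way; HNF4G lies furthest right at 5.22 and all triangles lie left of the lower dotted line.

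Of the 20 genes above, 8 were on a gut or liver list, among them HNF4G, the supplied factor itself. So were 3 of the 29 within and 27 of the 1392 below (1.94%). These lists include the HNF signature and were chosen with earlier results of these data known, so the shares are a description and not independent evidence. Over all 1705 BET-dependent genes the lists held 47 (2.76%), and over all 17876 tested genes 78 (0.436%). The letters of the HNF4 response element, CAAAGTCCA or CAAAGTTCA on either strand, were looked for in RefSeq promoter windows of 300 bases (250 before and 50 after each annotated start, GRCh38.p14). A gene with several windows counted once if any of them held a match. Of 11883 tested genes with a window by symbol, 88 held a match (0.741%). Among BET-dependent genes the letters were found for 3 of 15 above (CLRN3, MYO1A and SLCO2B1), 1 of 26 within, 12 of 967 below and 5 of 158 unresolved. A match is a run of letters and not a bound site, and no match says only that these letters are not in this window. The windows of 4 genes are shown, 2 of them above the untreated level and 2 below it. They were picked from 8 gut and liver genes whose windows held the element. Capitals mark it, and all are on the minus strand, written 5′ to 3′ in the direction of transcription.
CLRN3 (above, chr10:127892892-127893191): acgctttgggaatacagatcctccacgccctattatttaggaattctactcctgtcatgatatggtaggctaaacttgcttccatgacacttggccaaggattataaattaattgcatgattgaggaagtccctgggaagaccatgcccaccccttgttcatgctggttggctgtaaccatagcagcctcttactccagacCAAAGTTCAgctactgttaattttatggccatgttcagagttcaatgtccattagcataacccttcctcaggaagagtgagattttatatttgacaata
MYO1A (above, chr12:57050080-57050379, 1 of its 2 windows): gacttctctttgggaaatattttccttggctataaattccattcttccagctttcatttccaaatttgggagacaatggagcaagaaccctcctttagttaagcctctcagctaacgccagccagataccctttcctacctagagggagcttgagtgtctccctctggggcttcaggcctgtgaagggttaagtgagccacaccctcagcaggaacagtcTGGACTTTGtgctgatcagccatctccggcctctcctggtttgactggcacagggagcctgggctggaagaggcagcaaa
MUC13 (below, chr3:124934702-124935001): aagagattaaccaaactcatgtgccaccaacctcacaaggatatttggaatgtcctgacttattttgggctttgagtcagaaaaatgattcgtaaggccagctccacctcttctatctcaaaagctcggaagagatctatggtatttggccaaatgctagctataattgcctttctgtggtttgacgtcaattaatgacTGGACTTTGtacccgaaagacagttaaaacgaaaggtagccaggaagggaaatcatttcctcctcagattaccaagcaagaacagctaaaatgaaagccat
CYP2C8 (below, chr10:95069448-95069747): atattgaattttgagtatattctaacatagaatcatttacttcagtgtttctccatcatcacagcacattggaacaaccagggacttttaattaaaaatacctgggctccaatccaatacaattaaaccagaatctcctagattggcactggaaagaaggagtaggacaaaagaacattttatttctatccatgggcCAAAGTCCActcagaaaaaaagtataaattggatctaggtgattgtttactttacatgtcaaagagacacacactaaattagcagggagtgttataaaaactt
The element begins 49, 30, 51 and 53 bases before the annotated start in CLRN3, MYO1A, MUC13 and CYP2C8. Genes on both sides of the untreated level were picked for display, so these 4 do not show how matches divide between the sides.

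Over all tested genes 16.0% stood above, 25.3% within 1.5 times and 18.8% below, the shares beside which each list is to be read. The brush border list had the highest median of the gut and liver lists. Of its 14 tested genes 6 were above (ANKS4B, USH1C, CLRN3, MYO1A, CDHR2 and MISP), 3 were within 1.5 times (VIL1, EZR and PLS1), 1 was below and 4 were unresolved, with a median log2 change of 0.66, beside -1.34 for GFP-ABBV-075. CDH17, the intestinal cadherin, was the member below, at 55.4% of untreated (131 and 88.5 in HNF4G-ABBV-075 cells, 26.4 and 20.8 in GFP-ABBV-075 cells, 194 and 197 in GFP-DMSO cells). Its adjusted p of 0.018 became up to 0.089 without HNF4G-ABBV-075 number 2 or either GFP-DMSO library.

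Gut enzymes and secreted proteins were divided, with 2 of 14 above, 2 within, 4 below and 6 unresolved (median log2 change -0.17). SI, the sucrase-isomaltase of the small intestine, had 30.1 and 13.4 in HNF4G-ABBV-075 cells, 17.6 and 12.7 in GFP-ABBV-075 cells, and 145 and 180 in GFP-DMSO cells. It stood at 13% of untreated, and the 2 drug-treated groups overlapped. The chloride-bicarbonate exchanger SLC26A3 stood at 28.4% and the metalloprotease MEP1A at 45.1%. Plasma proteins had 3 of 11 above (TF, TTR and F5), 1 within and 4 below (median 0.14). TF was BET-repressed, at 474% of untreated in HNF4G-ABBV-075 cells and 744% in GFP-ABBV-075 cells. Among those below were HABP2, a serine protease, at 22.9%, AMBP, the precursor of alpha-1-microglobulin and bikunin, at 29.4%, and A1CF, the RNA-editing cofactor of APOBEC1, at 56.6% (adjusted p = 0.0065, a call lost without GFP-DMSO number 2). Lipoprotein genes had 0 of 8 above, 1 within and 3 below (median -0.32).

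Steroid and xenobiotic enzymes were divided, with 1 of 15 above, 3 within, 6 below and 5 unresolved (median log2 change -0.70, beside -2.20 for GFP-ABBV-075). CYP2C8, a drug- and arachidonate-oxidizing cytochrome P450, had 41.7 and 42.2 in HNF4G-ABBV-075 cells, 6.61 and 8.07 in GFP-ABBV-075 cells, and 168 and 161 in GFP-DMSO cells, or 26% of untreated. The glucuronosyltransferases UGT2B4 and UGT2B10 stood at 19.9% and 43.5%, the second losing its call without either GFP-DMSO library (adjusted p up to 0.104). Of 9 tested gut and liver transcription factors 2 were above, 0 within, 4 below and 3 unresolved (median -0.93, beside -0.39 for GFP-ABBV-075). Among the 4 below, NR1H4, the bile acid receptor, stood at 24.2%, NR1I3, a xenobiotic receptor, at 21.2%, and NR5A2, a regulator of bile acid synthesis, at 39.5%.

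Some genes that were not BET-dependent also stood above the untreated level, among them LGALS4, ALDH1A1 and KLF5 of the gut and liver lists. LGALS4, an intestinal galectin (chr19:38801671-38812945, minus strand), had 896 and 1165 in HNF4G-ABBV-075 cells, 139 and 160 in GFP-ABBV-075 cells, and 180 and 147 in GFP-DMSO cells. ALDH1A1, which oxidizes retinal to retinoic acid, had 5201 and 4314 in HNF4G-ABBV-075 cells, 1020 and 964 in GFP-ABBV-075 cells, and 851 and 926 in GFP-DMSO cells. Both were high in the transgenic libraries alone, at 6.24-fold and 5.33-fold the untreated level (adjusted p = 0.0002 and 3.6e-05). NT5E, the ectonucleotidase CD73, which is on the YAP/TEAD list and on no gut or liver list, stood at 4.45-fold and KLF5, a zinc-finger factor of the gut epithelium, at 2.52-fold (adjusted p = 0.00016 for each). KLF5 was high under the drug in GFP cells too, with 2872 and 2506 in HNF4G-ABBV-075 cells, 1873 and 1887 in GFP-ABBV-075 cells, and 1066 and 1064 in GFP-DMSO cells.

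The kallikreins, classical androgen-induced genes, stood further below the untreated level in inhibited HNF4G cells than in inhibited GFP cells. KLK3, which encodes prostate-specific antigen (chr19:50854915-50860764, plus strand), had 46.6 and 60.7 in HNF4G-ABBV-075 cells, 283 and 293 in GFP-ABBV-075 cells, and 1711 and 1359 in GFP-DMSO cells. KLK2, the neighbouring kallikrein (chr19:50861568-50880567, plus strand), had 361 and 386 in HNF4G-ABBV-075 cells, 1036 and 1055 in GFP-ABBV-075 cells, and 3556 and 3142 in GFP-DMSO cells. Both were lower in every HNF4G-ABBV-075 library than in every GFP-ABBV-075 library, and stood at 3.55% and 11.2% of the untreated level in HNF4G-ABBV-075 cells (adjusted p = 1.2e-05 and 1.0e-05). Among called genes with a mean count of 50 or more, no overlap and a symbol, the fall of KLK3 was the largest, at -4.82 on the log2 scale. LINC, LOC, clone and antisense-type names were left out of this ranking.

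The androgen-induced list as a whole fell far less than the kallikreins but leaned below the untreated level. Of 31 tested genes 7 were above, 7 within, 12 below and 5 unresolved, beside 16.0% above and 18.8% below over all tested genes. The median log2 change of the list was -0.20. TMPRSS2, an androgen-induced serine protease, had 1393 and 1432 in HNF4G-ABBV-075 cells, 708 and 661 in GFP-ABBV-075 cells, and 1305 and 1379 in GFP-DMSO cells. It was within 1.5 times of untreated in the transgenic cells and near the 2-fold limit in GFP cells (log2 change -0.97), just outside the BET-dependent set. FKBP5, an androgen-induced cochaperone, stood at 128% (adjusted p = 0.042), and its call was lost without either GFP-DMSO library, without HNF4G-ABBV-075 number 1 or without either GFP-ABBV-075 library (adjusted p up to 0.172). ABCC4, a transporter of cyclic nucleotides and organic anions, stood at 15.8%, and the fatty acid ligase ACSL3 at 171%.

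Of the 11 prostate luminal markers 2 were above (FOXA1 at 144%, FOLH1 at 159%), 4 within (among them HOXB13, GRHL2 and CDH1), 4 below and 1 unresolved. KRT18, a luminal keratin, stood at 63.5% (9765 and 11835 in HNF4G-ABBV-075 cells, 13145 and 13382 in GFP-ABBV-075 cells, 17568 and 16297 in GFP-DMSO cells), and KRT19 at 44.5%. KRT18 lost its call without GFP-DMSO number 1 (adjusted p = 0.067) and KRT19 without either GFP-DMSO library (up to 0.111). Among neuroendocrine markers 4 of 7 were below and 3 within. CGA, the common glycoprotein hormone subunit, had 58.2 and 54.5 in HNF4G-ABBV-075 cells, 278 and 280 in GFP-ABBV-075 cells, and 255 and 278 in GFP-DMSO cells, and so was low in the transgenic libraries alone (log2 change -2.22 ± 0.14 SE, adjusted p = 6.0e-05). The summed count of the 8 stromal markers was 376 and 365 in HNF4G-ABBV-075 cells, 416 and 431 in GFP-ABBV-075 cells, and 1620 and 1591 in GFP-DMSO cells. LUM, a collagen-binding proteoglycan, made up most of it in GFP-DMSO cells, with 222 and 147 in HNF4G-ABBV-075 cells, 216 and 216 in GFP-ABBV-075 cells, and 1283 and 1263 in GFP-DMSO cells. The part of this difference in other results was not tested.

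**Figure D4:**
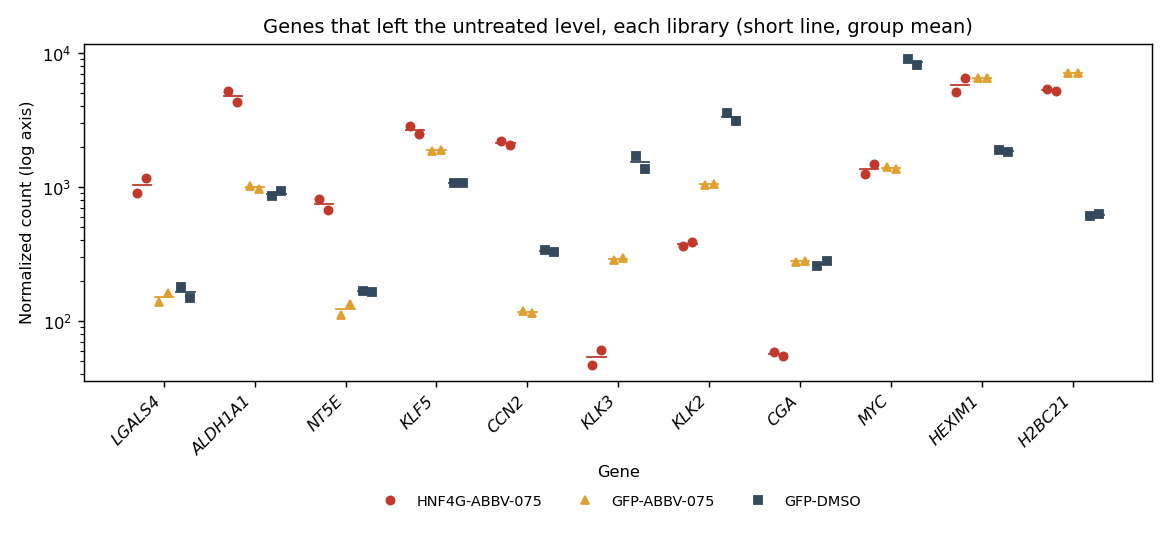
Normalized counts on a log axis, 1 point per library, of 11 genes that stood above or below the untreated level, for HNF4G-ABBV-075 (circles), GFP-ABBV-075 (triangles) and GFP-DMSO (squares), with short lines at group means. LGALS4, ALDH1A1 and NT5E are high in circles alone, CGA is low in circles alone, and MYC, HEXIM1 and H2BC21 sit together in both drug-treated groups.

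MYC and most of the ribosome biogenesis and G1/S genes stood below the untreated level, whereas most G2/M genes did not. MYC, which drives ribosome synthesis and cell growth, had 1258 and 1475 in HNF4G-ABBV-075 cells, 1423 and 1365 in GFP-ABBV-075 cells, and 9009 and 8176 in GFP-DMSO cells. The 2 drug-treated groups overlapped and both lay far under the untreated one, at 15.9% in the transgenic cells (log2 change -2.65 ± 0.14 SE, adjusted p = 3.9e-05). Of 29 genes for MYC and ribosome biogenesis 26 were below, 1 within and 0 above (median -0.74), with the ribosome assembly factors NOP16 at a log2 change of -1.74 and PPAN at -1.59. Of 25 G1/S and replication genes 17 were below, 6 within and 0 above (median -0.39), led by E2F2, an activator of S-phase genes, at 36.1%. Of 22 G2/M genes 13 were within 1.5 times, 4 below and 2 above (TTK and BUB1), with a median of -0.07. With only the compared libraries in the fit, TTK and BUB1 lost their calls (adjusted p = 0.059 and 0.066).

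Genes known to be induced by BET inhibitors stayed high. Of 14 such genes 12 were above and 0 below, with a median log2 change of 1.62, beside 2.04 for GFP-ABBV-075. HEXIM1, the inhibitor of P-TEFb used as a marker of BET inhibition, had 5131 and 6519 in HNF4G-ABBV-075 cells, 6473 and 6485 in GFP-ABBV-075 cells, and 1905 and 1816 in GFP-DMSO cells, or 3.11-fold the untreated level (adjusted p = 0.00018). The histone gene H2BC21 had 5369 and 5229 in HNF4G-ABBV-075 cells, 7083 and 7063 in GFP-ABBV-075 cells, and 613 and 626 in GFP-DMSO cells, or 8.54-fold (adjusted p = 7.2e-06). H2AC6 stood at 9.87-fold and H4C14 at 14.7-fold. Poly-A capture records only polyadenylated histone transcripts, and histone genes share sequence that the counting could split. Of the BET and P-TEFb genes themselves 9 of 13 were within 1.5 times, 4 were above and 0 below.

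After HNF4G, the largest rises with a mean of at least 50 were those of BET-repressed genes: CRB1, a regulator of epithelial polarity, stood at 17.0-fold (166 and 121 in HNF4G-ABBV-075 cells, 118 and 137 in GFP-ABBV-075 cells, 4.84 and 11.1 in GFP-DMSO cells), followed by H4C14, TMEM105, which GENCODE lists as a long noncoding RNA, IQCN, H2AC6, H2BC21, PCP4L1, ACSBG1 and CCDC82. The 10 largest falls were KLK3 and, among others, ARL9 (5.86% of untreated), NKX1-2 (6.16%), NXPH1 (6.99%), BOLL (7.26%), LRFN4 (7.71%), MATK (7.98%), CCKBR (8.50%) and PALMD (8.90%). NXPH1 encodes a neurexin ligand, MATK a kinase that restrains SRC-family kinases and CCKBR the gastrin receptor. All 10 genes were BET-dependent, beside 9.54% of all tested genes. The ranking and the class are both falls from the same GFP-DMSO libraries under the same drug, so this was largely set by the choice. The same holds for the rises and the BET-repressed class (4.59% of all tested genes).

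Apart from the immediate early genes, the other lists stood nearer to the untreated level or were mixed, beside 16.0% above, 25.3% within and 18.8% below over all tested genes. Of 21 cholesterol synthesis genes 6 were above, 10 within and 0 below (median log2 change 0.16), with the sterol sensor INSIG1 at 252% (31821 and 28214 in HNF4G-ABBV-075 cells, 23584 and 23392 in GFP-ABBV-075 cells, 12401 and 11415 in GFP-DMSO cells). Of 14 immediate early genes 9 were above and 1 below (median 0.91, beside 1.04 for GFP-ABBV-075), with FOS at 474%. Of 13 interferon genes 7 were above and 2 below (median 0.75). IFI6 stood at 930%, but its mean count was under 50, the minimum for the ranked rises. OAS3, an oligoadenylate synthetase, stood at 22.1% and MX1, a dynamin-like antiviral GTPase, at 47.7%. Of 8 CDK inhibitors 3 were above, among them CDKN2B at 397%, and CDKN1A, which encodes p21, was within 1.5 times at 84.8%. The BCL2 family had 3 of 14 above (MCL1 at 165%), 3 within and 3 below (BCL2 at 62.2%), near the shares over all tested genes. The ATF4 response had 5 of 15 above, 4 within and 1 below, led by the asparagine synthetase ASNS at 279%. Of 11 YAP/TEAD targets 3 were above, 3 within and 3 below, so that CCN2 and NT5E did not stand for their list (median 0.04). Of 12 housekeeping genes 8 were within 1.5 times, 3 below and 0 above.

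**Figure D5:**
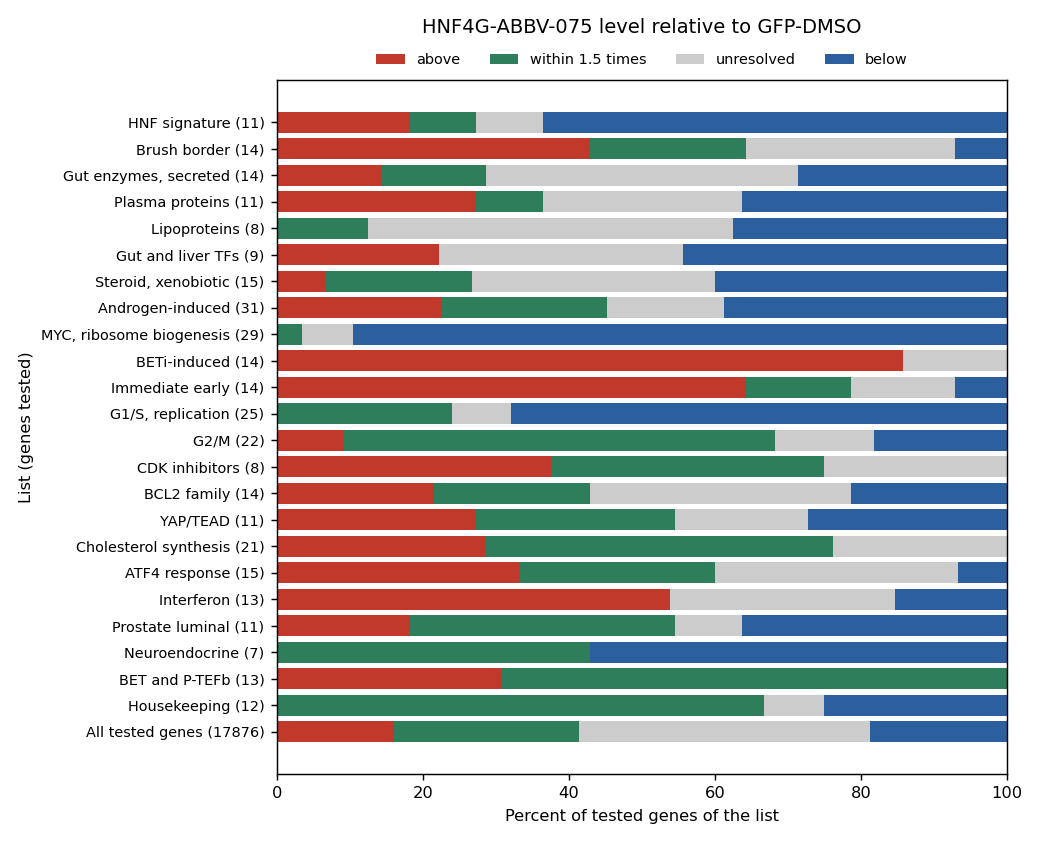
Stacked bars of the percent of each list's tested genes (number in parentheses) that stood above, within 1.5 times, unresolved or below the GFP-DMSO level in HNF4G-ABBV-075 cells. BETi-induced genes are mostly above (12 of 14) and MYC and ribosome biogenesis genes mostly below (26 of 29), while the bottom bar gives all 17876 tested genes.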

How the data were processed

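Poly-A-captured RNA from 8 libraries of 22Rv1 cells was sequenced from paired ends, and the labels' transgene and treatment gave 4 groups of 2. Per the study's methods and the submitters' notes, the authors aligned reads to hg38 with STAR, version 2.6 in those notes, while the methods name another version and state log2 TPM. The deposited signal is another unit, a normalized count (reads divided by 1 size factor per library). Not given in the sources used here were the counter, its strand setting, the annotation and how the size factors were set. Dividing by each library's step brought 100% of nonzero values to whole numbers (tolerance 0.01), which recovered the reads. Values are relative amounts and not absolute ones, with no spike-in used here.

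The table held 57605 entries, of which 2 repeated an identifier with identical values and were dropped, while 17600 identifiers lacked a symbol. The test took the 17876 genes averaging 10 or more. In R 4.3.3, limma 3.58.1 was run with its intensity trend on log2(normalized count + 1), with 4 group means over all 8 libraries, two-sided tests, Benjamini-Hochberg adjustment and a threshold of 0.05. Levels as a percent or fold of GFP-DMSO are fitted values on this scale, which understates changes of low genes. Group positions share the GFP-DMSO libraries with the choice of BET-dependent genes. edgeR 4.0.16 and DESeq2 1.42.0 were run on recovered reads as alternatives, with other pseudocounts, filters, scalings, blocks, a GC and length correction, and each library left out. The fit was tested on simulated data. Coordinates come from GENCODE on hg38.

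The members and the 26 lists were chosen with earlier results of these data known. Named genes were a fixed set of 31, the 10 largest rises and falls averaging 50 or more without overlap, the leading BET-dependent (8) and BET-repressed (5) genes of each position, and up to 3 rising and 3 falling genes per list; some are left out where others show the same, and exceptions are marked. The ranked choices, other than those per list, left out genes without a symbol and those with LINC, LOC, clone or antisense-type names. Fewer than 2 genes of the basal and of the immune and endothelial lists were tested. Results for some genes are not reported here.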

Additional observations from a re-analysis of the deposited data

How the results depend on the processing

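Several counts moved by over 1.5 times under other settings. Correction for GC content and length gave 4573 genes higher and 5107 lower, and without both libraries of low GC content, HNF4G-ABBV-075 number 1 and HNF4G-DMSO number 2 (chosen after seeing the data), 4628 were higher; the cause was not tested. With a mean of at least 100, 916 genes were BET-dependent (13 above, 835 below) and 300 BET-repressed (279 above), as fewer genes were tested. Quantile normalization left 13 BET-dependent genes above. Within 1.5 times stood 17 with only the compared libraries in the fit, and 19 with the GC and length correction in the replicate block; within 2 times stood 93. With no minimum fold, 3432 genes were BET-dependent (33 above, 281 within, 2590 below) and 2534 BET-repressed (1957 above, 1 below).

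When GFP-DMSO number 1 chose the genes and number 2 gave the level, 8 BET-dependent genes were above and 10 within, and 447 BET-repressed genes above. In the reverse, 12 were within and 918 below, and of BET-repressed genes 401 were above and 1 below. Leaving out 1 library gave 1167 to 3537 genes higher, 1729 to 3936 lower, 1267 to 1781 BET-dependent (8 to 19 above, 8 to 29 within, 947 to 1390 below) and 530 to 871 BET-repressed (462 to 704 above, 0 below throughout). The low counts came without GFP-DMSO number 1 (1167 higher, 1729 lower) or number 2 (1504 and 1816).

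The numbers did not pair the samples (correlation of deviations -0.13 between HNF4G-ABBV-075 and GFP-DMSO, and -0.59 to 0.13 over all pairs of groups, the lowest between HNF4G-ABBV-075 and HNF4G-DMSO). The replicate block gave 2140 genes higher and 2769 lower, with 17 BET-dependent genes above and 20 within, and a block with crossed numbers, added after seeing the data, 3322 higher and 3808 lower. edgeR called 2990 higher and 3317 lower, DESeq2 2383 and 2788. Of 124 called named genes 79 kept the call under every alternative and 45 lost it at least once; 0 reversed. With 2 libraries a group, 264 BET-dependent genes stayed unresolved.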
